A study of Bos taurus with 8 samples.

Results

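The Wnt genes described here are the rows of the deposited table whose symbols match Wnt ligands (WNT), Frizzled receptors (FZD), the co-receptors LRP5 and LRP6, the secreted inhibitors SFRP and DKK, the R-spondins (RSPO) and their receptors (LGR), RNF43, ZNRF3, AXIN, DVL, PORCN and the TCF/LEF factors. The match gave 43 genes of 14970, with 13 ligands, 10 Frizzled receptors and 20 genes of the other classes. LEF1, LGR5 and LGR6 were not analysed here. RNA was sequenced from 8 bovine trophectoderm outgrowths, which are epithelial cultures that grow out of the outer layer of an embryo. The outgrowths were sampled individually, from hatched embryos produced in vitro, plated on collagen IV on day 10 in trophectoderm growth medium and collected on day 35 (libraries A to D) or on day 41 (libraries E to H). The groups differ in the day of collection and in no genotype or agent that the labels name. Levels are RPKM, reads scaled to the exon length and to the depth of the library, and means are given with SD and n = 4 per day. The library headers give the day and no replicate number, so the letters follow the column order only.

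Wnt proteins are lipid-bearing signals. PORCN attaches the lipid, the carrier WLS takes the ligand to the cell surface, and a Frizzled receptor with LRP5 or LRP6 binds it on the receiving cell. DVL then holds AXIN at the membrane, beta-catenin escapes breakdown and enters the nucleus, and TCF/LEF factors switch from repression to activation of their target genes. DKK proteins block LRP5 and LRP6, SFRP proteins bind the ligands, and the ligases RNF43 and ZNRF3 remove Frizzled receptors unless an R-spondin bound to an LGR receptor holds them off. Some ligands, such as WNT5A and WNT11, are best known for signalling without beta-catenin. In mouse placenta, Wnt signals take part in chorion and labyrinth formation, and the inhibitor DKK1 is also made by the bovine uterus.

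Reads recovered from the deposited values came to between 106402848 and 158034430 per library. Library A lay apart, with a mean correlation of 0.954 to the others against 0.966 to 0.976 elsewhere. The labelled cell type was checked on 9 trophoblast markers, all of which were present, with a summed level of 4099 to 5058 RPKM on day 35 and 3246 to 4069 RPKM on day 41, so the days did not overlap. Summed levels were 21.1 to 581 and 16 to 255 RPKM for 10 matched hypoblast and yolk sac markers, and 17.7 to 251 and 4.15 to 35.1 RPKM for 11 mesenchyme and stroma markers, both highest in library B. For 3 matched immune markers they were 9.79 to 11.6 and 13.4 to 16.8 RPKM, mostly CD14, and for the binucleate cell markers CSH2, PRP1 and PAG1 1.76 to 38.1 and 0.0386 to 98.7 RPKM. None of the matched markers was at 0 in all 8 libraries. In such bulk samples, fewer cells of a type and less RNA per cell cannot be told apart.

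The ligands were led by WNT6, the most abundant of the 43 genes. WNT6 (ENSBTAG00000013990, chromosome 2, 106822087 to 106835094 on ARS-UCD1.2) stood at 101, 178, 173 and 123 RPKM in libraries A to D and at 158, 175, 180.1 and 167 RPKM in libraries E to H. It was above every other ligand in all 8 libraries and took 39.0% to 57.2% of the summed ligand level. WNT11, which signals mainly without beta-catenin, was at 54.4, 39.5, 56.4 and 41.2 RPKM in libraries A to D and at 42.7, 53.0, 34 and 40.5 RPKM in E to H. WNT2B was at 59.5, 33.6, 38.8 and 35.9 RPKM and then at 35.4, 39.4, 25.3 and 23.9 RPKM. The means per day were 144 ± 37.9 and 169.8 ± 9.75 RPKM for WNT6, 47.9 ± 8.76 and 42.5 ± 7.90 RPKM for WNT11, and 41.9 ± 11.9 and 31.0 ± 7.57 RPKM for WNT2B. The days overlapped for each of the 3, and WNT11 was above WNT2B in 7 of 8 libraries. WNT16 followed at 8.78, 15, 18.7 and 14.2 RPKM in libraries A to D and 14.9, 35.9, 25.4 and 21.3 RPKM in E to H, lowest in library A and highest in F. Together with WNT5B, these ligands made up 87.6% to 90.7% of the summed ligand level, which itself ranged from 258 to 357 RPKM.

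The other ligands formed a long tail. WNT5B, a relative of WNT5A, was at 14.9 ± 7.54 and 16.4 ± 4.01 RPKM, with 5.83 RPKM in library A and 24.1 RPKM in C, and did not separate from WNT16, which was the higher in 5 of 8 libraries. WNT10B was at 7.09 ± 2.49 and 13.2 ± 2.70 RPKM, as described further on. WNT7A and WNT4, both known for their part in the development of the female reproductive tract, had day means of 7.83 ± 1.40 and 6.05 ± 1.46 RPKM for WNT7A and 7.39 ± 1.31 and 6.13 ± 1.22 RPKM for WNT4. Each was the higher in 4 of 8 libraries, so their order was not resolved. WNT7B was at 4.50 ± 1.01 and 3.5 ± 1.23 RPKM, WNT10A at 2.24 ± 0.693 and 2.01 ± 0.835 RPKM, and WNT5A at 1.83 ± 0.971 and 1.94 ± 1.09 RPKM. WNT9A and WNT3 stayed below the level needed for testing (0.5 RPKM in at least 4 libraries), with highest values of 0.424 RPKM in library G and 0.186 RPKM in library C, the latter from 34 reads.

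**Figure D1:**
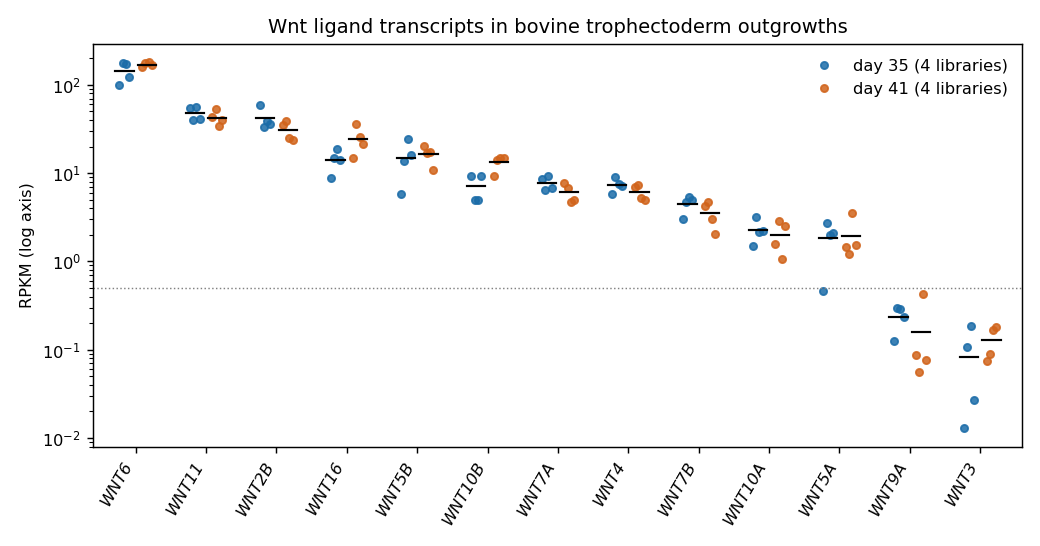
RPKM of the 13 Wnt ligand genes on a log axis, 1 point per library, blue for day 35 and orange for day 41, with black bars at the mean of each day (n = 4) and a dotted line at 0.5 RPKM. WNT6 lies between 101 and 180.1 RPKM, above all other ligands, and WNT9A and WNT3 lie below the dotted line in every library.

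Among the receptors, FZD6 and LRP5 were the most abundant and lay close together, with FZD6 the higher in 4 of 8 libraries. FZD6, a Frizzled receptor known from mouse skin for planar cell polarity, was at 16.8, 23.3, 26.1 and 21.6 RPKM in libraries A to D and at 36.2, 31.0, 29.1 and 32.0 RPKM in E to H. LRP5 was at 19.1, 23.2, 27.1 and 30.9 RPKM and then at 28.6, 28.5, 30.0 and 27.6 RPKM. Day means of LRP5 were 25.1 ± 5.10 and 28.7 ± 1.01 RPKM. The days were apart for FZD6 and overlapped for LRP5, and the related LRP6 was lower than LRP5 in each library, at 3.53 ± 0.918 and 3.49 ± 0.593 RPKM. FZD6 alone held 45.3% to 58.9% of the summed Frizzled level.

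FZD5, which is needed for placental development in mice, was at 1.65, 8.03, 9.33 and 8.61 RPKM in libraries A to D and at 9.80, 11.5, 7.96 and 8.46 RPKM in E to H. Its value in library A stood far below the other 7. FZD10 was at 2.51, 3.79, 5.44 and 2.33 RPKM and then at 5.05, 9.84, 0.446 and 6.45 RPKM, a range of 22.1-fold set by its low value in library G and its high value in F. Day means were 6.91 ± 3.54 and 9.42 ± 1.57 RPKM for FZD5 and 3.52 ± 1.44 and 5.45 ± 3.89 RPKM for FZD10. FZD3 (4.11 ± 0.842 and 4.25 ± 0.837 RPKM) and FZD4 (3.86 ± 1.33 and 4.25 ± 1.31 RPKM) were not ordered against each other, and FZD7 was at 3.09 ± 0.899 and 2.47 ± 0.523 RPKM. FZD2, FZD8, FZD9 and FZD1 did not reach the level needed for testing. FZD2 was at 0.155, 1.32, 0.174 and 0.297 RPKM in libraries A to D and at 0.301, 0.508, 0.0662 and 0.947 RPKM in E to H. Its highest library was B, where the mesenchymal collagen COL1A1 stood at 76.4 RPKM and VIM, a mesenchymal filament, at 86.4 RPKM. Its second highest was H, where COL1A1 was at 1.19 RPKM and VIM at 9.96 RPKM. The mesenchymal marker PDGFRB had its highest value in H, at 0.339 RPKM. The part of mesenchymal cells in the FZD2 values was not tested. The highest values of FZD8, FZD9 and FZD1 were 0.749, 0.475 and 0.215 RPKM, and FZD9 shares 89 exon bases with BAZ1B on the other strand, so reads of the pair cannot be told apart there unless strand was counted.

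**Figure D2:**
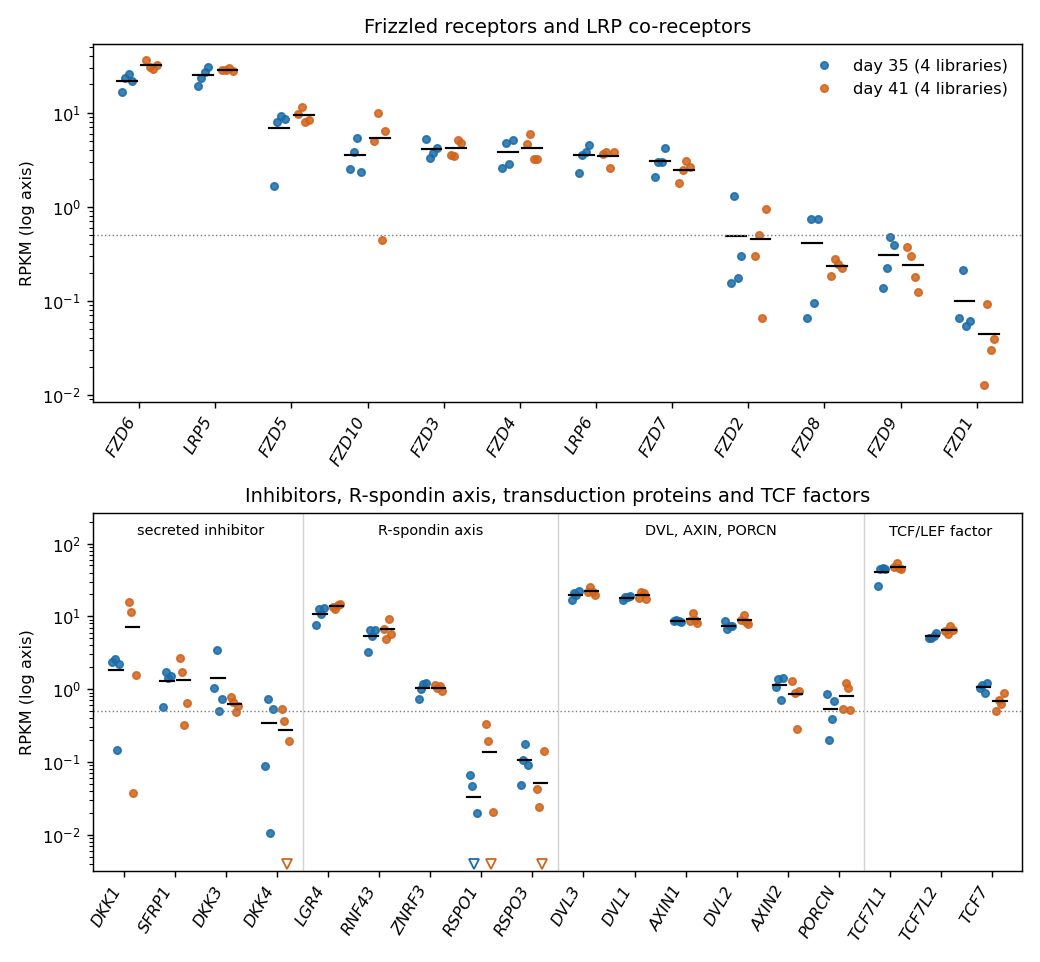
RPKM on a log axis for the receptors (top) and for the inhibitors, R-spondin axis, transduction proteins and TCF factors (bottom), 1 point per library, blue for day 35 and orange for day 41, with black bars at the mean of each day (n = 4), a dotted line at 0.5 RPKM and open triangles at the foot for values of 0. FZD6 is the only receptor whose days are apart, and DKK1 spreads from 0.0381 to 16 RPKM.

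The secreted inhibitors were low and differed widely between outgrowths, with a summed level of 0.838 RPKM in library G and 20.01 RPKM in E. DKK1, the LRP5 and LRP6 blocker (ENSBTAG00000014218, chromosome 26, 6846290 to 6849518), was at 2.37, 2.58, 0.148 and 2.22 RPKM in libraries A to D and at 16, 11.4, 0.0381 and 1.58 RPKM in E to H. Libraries E and F were far above the rest and C and G far below, and the highest value was 419.8 times the lowest, which rested on 9 reads. SFRP1, which binds Wnt ligands, was at 0.571, 1.74, 1.44 and 1.5 RPKM and then at 2.71, 1.70, 0.319 and 0.656 RPKM. DKK3, a distant relative that is not known as an LRP blocker, was at 1.04, 3.44, 0.495 and 0.723 RPKM in libraries A to D and at 0.780, 0.668, 0.482 and 0.596 RPKM in E to H. Day means were 1.31 ± 0.510 and 1.35 ± 1.08 RPKM for SFRP1 and 1.42 ± 1.36 and 0.631 ± 0.126 RPKM for DKK3. DKK3 was highest in library B, where the summed mesenchymal markers were also highest. Of these markers, TWIST1 was highest in A (4.71 RPKM) and PDGFRB in H (0.339 RPKM). Over the 8 libraries, DKK3 and the summed mesenchymal markers had a Pearson's r of 0.90 on log2(RPKM + 1) and a Spearman's rho of 0.64. Neither passed after adjustment over all relations computed (adjusted p = 0.212 and 0.611, exact permutation tests). Without libraries B and G, r was 0.50. Beyond these coefficients, the part of the mesenchymal markers in the DKK3 value was not tested. DKK4 was at 0.0884, 0.729, 0.0107 and 0.533 RPKM and then at 0.534, 0.364, 0 and 0.195 RPKM, where the 0 in library G allows up to 0.0368 RPKM (3 reads, counting error only). Library G was the lowest for all 4 inhibitors.

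DKK1 followed the binucleate cell markers from outgrowth to outgrowth, though the relation did not pass adjustment over all those computed. Binucleate cells are the trophoblast cells of ruminants that secrete placental lactogen (CSH2) and prolactin-related protein (PRP1). CSH2 was at 5.53, 8.85, 0.243 and 7.13 RPKM in libraries A to D and at 19, 10.4, 0 and 5.57 RPKM in E to H, and PRP1 at 18.3, 26.1, 1.38 and 14.8 RPKM and then at 78.5, 53.8, 0 and 23.2 RPKM. Both were highest in libraries E and F and lowest in C and G, as DKK1 was. On each day the 4 libraries had the same order for DKK1 as for the summed markers CSH2, PRP1 and PAG1 (the symbol PAG1 stands on 2 rows, both included). Over the 8 libraries, Pearson's r was 0.89 on log2(RPKM + 1) (exact permutation p = 0.00551) and Spearman's rho was 0.93 (exact permutation p = 0.00223). Without C and G, the libraries farthest from the median of the marker sum, r was 0.945. A rho at least as high was found in 0.135% of the 12582 tested genes. That share counts DKK1 itself and the markers CSH2 and PRP1, which are part of the sum. In all, 170 relations were computed, of 34 Wnt genes with 5 marker lists. After Benjamini-Hochberg adjustment over them, neither coefficient of DKK1 over the 8 libraries passed (adjusted p = 0.212 and 0.364, exact permutation tests). DKK1 did not stand alone there. The same Pearson value was reached by FZD3 with the yolk sac list (r = -0.87) and DKK3 with the mesenchyme list (0.90). LGR4 with the trophoblast list (-0.82) and WNT16 with the immune list (0.84) reached it too. The Spearman value was shared by these FZD3 and LGR4 relations, SFRP1 with the yolk sac list and TCF7L2 with the mesenchyme list. SFRP1 had a rho of 0.79 with the binucleate cell markers. The relation was looked at after the values had been seen, and with 4 libraries per day no coefficient was computed within a day.

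The R-spondin axis was represented by its receptor and ligases rather than by its ligands. LGR4, the R-spondin receptor, was at 7.56, 12.5, 10.7 and 13.0 RPKM in libraries A to D and at 13.6, 12.7, 14.5 and 14.7 RPKM in E to H. RNF43 was at 3.26, 6.42, 5.38 and 6.45 RPKM and then at 6.75, 4.87, 9.28 and 5.78 RPKM. ZNRF3 was at 0.738, 1.01, 1.18 and 1.22 RPKM and then at 1.13, 1.03, 1.09 and 0.948 RPKM. Day means were 10.9 ± 2.45 and 13.9 ± 0.922 RPKM for LGR4, 5.38 ± 1.5 and 6.67 ± 1.90 RPKM for RNF43, and 1.04 ± 0.220 and 1.05 ± 0.0800 RPKM for ZNRF3. All 3 were lowest in library A, and they kept the order LGR4, RNF43, ZNRF3 in each library. RSPO1 was at 0.0655, 0.0469, 0 and 0.0197 RPKM in libraries A to D and at 0.336, 0.193, 0 and 0.0207 RPKM in E to H, where a count of 0 allows up to 0.00795 RPKM in library C and 0.00909 RPKM in G. RSPO3 did not exceed 0.175 RPKM and had no reads in library G, so neither ligand could be tested.

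Most of the intracellular proteins varied little between outgrowths. DVL3 was at 16.6, 21.2, 19.8 and 22.3 RPKM in libraries A to D and at 21.5, 25.0, 21.9 and 19.7 RPKM in E to H, and DVL1 at 16.5, 18.5, 18.4 and 19 RPKM and then at 17.8, 21.8, 21 and 17.2 RPKM. DVL2, the third Dishevelled protein, was at 8.53, 6.66, 7.28 and 7.46 RPKM and then at 9.01, 10.4, 8.42 and 7.84 RPKM. AXIN1, the scaffold of the complex that breaks down beta-catenin, was at 8.63, 9.01, 8.60 and 8.36 RPKM and then at 8.53, 11.1, 8.84 and 8.04 RPKM. Day means were 19.96 ± 2.47 and 22.02 ± 2.19 RPKM for DVL3 and 18.1 ± 1.09 and 19.5 ± 2.30 RPKM for DVL1. They were 7.48 ± 0.779 and 8.91 ± 1.08 RPKM for DVL2 and 8.65 ± 0.268 and 9.14 ± 1.37 RPKM for AXIN1. The highest and lowest libraries of these genes differed by 1.32-fold to 1.56-fold. AXIN2, the related scaffold that is itself a beta-catenin target, was at 1.15 ± 0.325 and 0.851 ± 0.416 RPKM, with 0.284 RPKM in library G. PORCN, the enzyme that makes ligands fit for secretion, was at 0.536 ± 0.298 and 0.818 ± 0.346 RPKM and ranged from 0.198 RPKM in B to 1.2 RPKM in F.

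Of the TCF/LEF factors, TCF7L1 took 80.9% to 89.4% of the summed level of TCF7L1, TCF7L2 and TCF7. TCF7L1, known as a repressor of Wnt targets in mouse embryonic stem cells, was at 25.8, 44.7, 46.7 and 45.2 RPKM in libraries A to D and at 48.1, 54.3, 45.7 and 44.2 RPKM in E to H. Apart from library A, its values lay within a narrow range. TCF7L2 was at 5.04, 4.98, 5.34 and 6.0 RPKM and then at 6.25, 5.69, 7.4 and 6.41 RPKM. TCF7 was at 1.03, 1.14, 0.873 and 1.21 RPKM and then at 0.495, 0.713, 0.628 and 0.898 RPKM, with only H on day 41 reaching the lowest library of day 35. Day means were 40.6 ± 9.90 and 48.1 ± 4.45 RPKM for TCF7L1 and 5.34 ± 0.469 and 6.44 ± 0.714 RPKM for TCF7L2. The order TCF7L1, TCF7L2, TCF7 held in each of the 8 libraries.

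Outgrowths kept in culture for longer were then set against the younger ones. By limma-trend on log2(RPKM + 1), 0.0318% of the 12582 tested genes were called higher and 0.0159% lower. No Wnt gene passed: 0 of the 34 that could be tested had an adjusted p under 0.05 in either direction. With 4 libraries per day, that does not show that their levels were unchanged. At an unadjusted p under 0.05 there were 4, WNT10B, WNT16 and FZD6 with higher values (against 5.9% of tested genes) and TCF7 with a lower one (against 5.82%). By sign alone 22 of the 34 had higher and 12 lower values on day 41, against 52.6% higher over all tested genes. The median log2 difference was 0.11 over the 34 genes and 0.01 over all tested genes. The first was 0.054 without library A, 0.058 without F, 0.046 with array weights and 0.026 with quality weights in limma-voom. It was 0.16 for the 8 receptors and -0.13 for the 11 ligands. The difference between these classes was not tested. The share with higher values moved with single libraries, to 18 higher and 16 lower without A and to 19 and 15 without F.

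FZD6 (ENSBTAG00000010529, chromosome 14, 61176627 to 61212948) was the only member whose days did not overlap, 1 of 34 against 4.26% of tested genes higher without overlap, and 0 were lower without overlap, against 3.94%. Its mean of 22 ± 3.91 RPKM in the younger and 32.1 ± 3.02 RPKM in the older outgrowths gave a ratio of 1.46 (log2 difference 0.54, SE 0.14, 95% interval 0.23 to 0.85, limma-trend adjusted p = 0.223). WNT10B (ENSBTAG00000015347, chromosome 5, 30841487 to 30847512), a ligand that signals through beta-catenin, was at 9.28, 4.92, 4.96 and 9.21 RPKM and then at 9.24, 13.9, 15 and 14.8 RPKM. Library E fell just under the top of day 35 and the other day 41 libraries lay above it. The ratio of its means was 1.86 (log2 difference 0.84, SE 0.24, 95% interval 0.30 to 1.39, limma-trend adjusted p = 0.248). In the authors' deposited table, a likelihood ratio comparison in which 0.675% of 14970 genes are higher and 1.08% lower at an FDR under 0.05, these are the 2 Wnt genes called, with FDR 0.0337 for WNT10B and 0.0471 for FZD6, both higher.

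The calls of FZD6 and WNT10B depended on the test. When quality weights were used, limma-voom called both higher (adjusted p = 0.0400 for FZD6 and 0.0496 for WNT10B, 2.96% of tested genes called higher and 2.23% lower), and so did array weights in limma-trend (adjusted p = 0.0278 and 0.0415, 4.71% called higher and 3.59% lower), while limma-voom without weights called neither. At an unadjusted p under 0.05, array weights gave 8 of the 34, against 28.3% of tested genes in either direction. Library A, the outlying one, got an array weight of 0.128. The largest array weights were 4.00 for E and 2.62 for C, with 0.683 to 1.49 for the rest, so array-weighted fits leaned most on E and C. Without A, the log2 difference of FZD6 by limma-trend was 0.42 (adjusted p = 0.0977) and that of WNT10B 0.98 (adjusted p = 0.106). The summed immune list, mostly CD14, was higher on day 41. The summed trophoblast list was lower, mostly through the keratins KRT8 (2537 ± 269 and 1984 ± 213 RPKM) and KRT18 (1149.6 ± 193 and 878 ± 132 RPKM). Lower means were also found for KRT7 (277 ± 35.7 and 218 ± 26.1 RPKM), GATA2 (112 ± 13.8 and 93.9 ± 9.78 RPKM) and CDX2 (8.66 ± 1.10 and 6.95 ± 2.09 RPKM). So they were for TFAP2A (51.6 ± 2.94 and 47.2 ± 4.84 RPKM) and TFAP2C (67.2 ± 7.53 and 62.6 ± 3.99 RPKM). CDH1 was at 320.6 ± 9.09 and 321 ± 35.6 RPKM and GATA3 at 90.1 ± 10.7 and 93.8 ± 9.19 RPKM. Over the 8 libraries, Pearson's r of FZD6 was 0.75 with the immune list and -0.69 with the trophoblast list. For WNT10B the coefficients were 0.81 and -0.75. None passed after adjustment over all relations computed (adjusted p = 0.33 to 0.44, exact permutation tests). Beyond these coefficients, the part of either list in the values of FZD6 and WNT10B was not tested.

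WNT16 was at 14.2 ± 4.10 and 24.4 ± 8.85 RPKM (log2 difference 0.72, SE 0.28, limma-trend adjusted p = 0.386), with library E on day 41 below C on day 35. The WNT16 difference was 0.17 with array weights (limma adjusted p = 0.684) and 0.24 with quality weights in limma-voom (adjusted p = 0.598). It was 0.52 without library A and 0.52 without F (limma-trend adjusted p = 0.319 and 0.607), and in these 4 fits its unadjusted p was no longer under 0.05. TCF7 was at 1.06 ± 0.147 and 0.684 ± 0.169 RPKM (log2 difference -0.30, SE 0.11, limma-trend adjusted p = 0.360). In the authors' deposited table the FDR is 0.151 for WNT16 and 0.606 for TCF7. DKK1 had the largest log2 difference of the 34, 0.92, with means of 1.83 ± 1.13 and 7.24 ± 7.69 RPKM, but its 95% interval ran from -1.04 to 2.87 (limma-trend adjusted p = 0.724). Leaving out single libraries moved that difference between 0.31 (without E) and 1.66 (without G), and it was 2.21 with array weights (adjusted p = 0.122) and 3.05 with quality weights in limma-voom (adjusted p = 0.386). The largest array weights fell on E and C, where DKK1 was at 16 and 0.148 RPKM and WNT16 at 14.9 and 18.7 RPKM. For AXIN2, the commonly used readout of beta-catenin activity, the log2 difference was -0.23 with an interval of -0.67 to 0.21, which spans both directions.

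**Figure D3:**
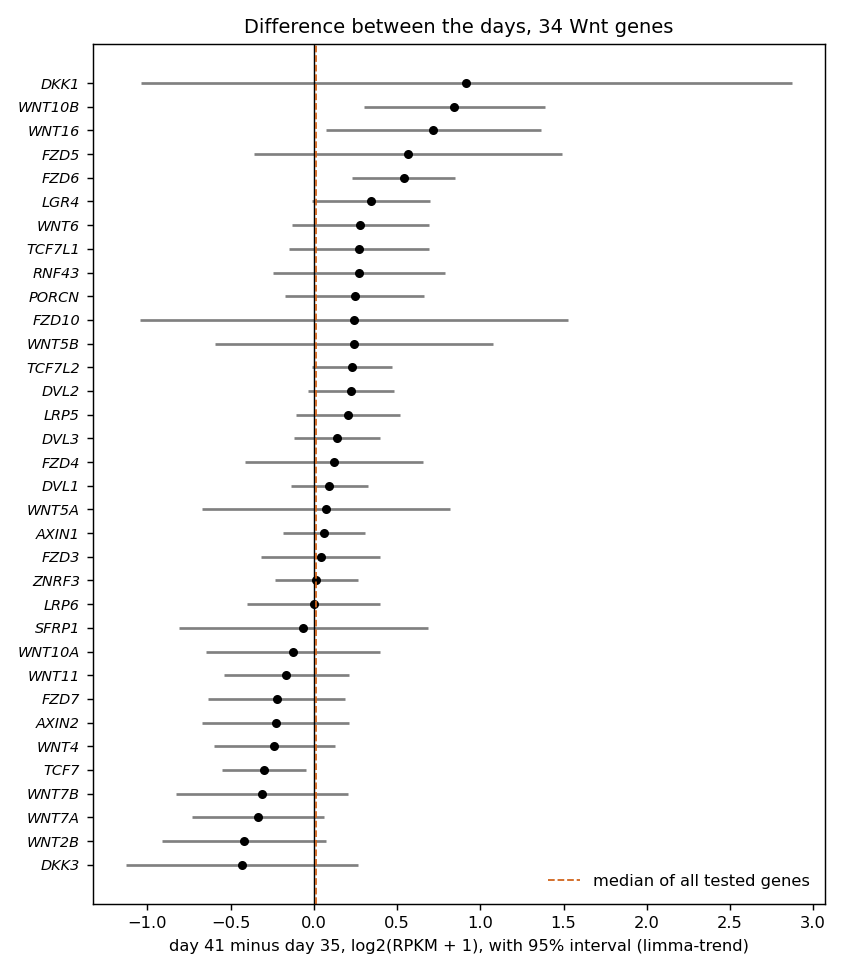
Difference in mean log2(RPKM + 1), day 41 minus day 35, for the 34 Wnt genes that could be tested, with points for the limma-trend estimate, lines for its 95% interval and a dashed line at the median of all tested genes. The intervals of WNT10B, WNT16, FZD6 and TCF7 leave out 0, and that of DKK1 is the widest.

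Other genes of the pathway were drawn from a list of 89, of which 77 matched and 59 could be tested. Of these 59, 38 had higher and 21 lower values on day 41, where 52.6% of all tested genes had higher ones. By limma-trend 0 passed in either direction, and 2 higher and 3 lower had an unadjusted p under 0.05, against 5.9% and 5.82% of all tested genes. None had an FDR under 0.05 in the authors' deposited table. The core was expressed in all libraries: CTNNB1, which encodes beta-catenin, was at 157 ± 5.71 and 149 ± 3.78 RPKM, the kinase GSK3B at 19.8 ± 1.92 and 19.4 ± 1.49 RPKM, and the scaffold APC at 5.66 ± 1.58 and 7.00 ± 0.903 RPKM. The ligand carrier WLS was at 73.6 ± 7.32 and 74.9 ± 7.26 RPKM, far above PORCN. The 3 with the smallest p among higher values were PTK7, a Wnt co-receptor (12 ± 1.48 and 18.6 ± 5.20 RPKM), CD44, an adhesion receptor (375 ± 94.6 and 624 ± 245 RPKM), and FBXW11, a ubiquitin ligase subunit that targets beta-catenin (16.6 ± 1.43 and 19.6 ± 2.15 RPKM). Among lower values they were the transcription factors SOX9 (5.46 ± 1.52 and 1.98 ± 0.993 RPKM) and MYC (20.5 ± 8.58 and 11.5 ± 1.52 RPKM) and the Dishevelled inhibitor NKD2 (4.94 ± 2.23 and 1.69 ± 1.18 RPKM). The smallest adjusted p by limma-trend was 0.235, for SOX9, and 0.290 for PTK7. With array weights PTK7 and CD44 were called higher and SOX9 lower, against 4.71% and 3.59% of all tested genes. CCND1, cyclin D1, was at 18.4 ± 5.60 and 13.2 ± 1.25 RPKM. Of the 9 target genes tested, 3 had higher and 6 lower values, where 47.4% of all tested genes had lower ones. The targets NKD1, placed with the destruction complex regulators, and AXIN2, placed with the Wnt genes, were not counted here. Their log2 differences were 0.29 and -0.23.

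Spread between outgrowths was wide for many of these genes. The highest library was over 2 times the lowest for 21 of 34 Wnt genes, against 37.2% of all tested genes, and over 4 times for 10 of 34, against 11%. It was over 10 times the lowest for 2 of 34, against 3.82%. These shares were not matched for level: 12 of 43 Wnt genes had a mean above 10 RPKM, against 42.2% of 14970 genes. Library A was the lowest for 15 of 34, against 29.2% of all tested genes, and the highest for 2, against 31.2%. Library F was the highest for 10 of 34, against 12.3%. These are descriptions, since the genes share libraries and depth.

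Library G was the lowest for 8 of 34 Wnt genes, against 10.6% of all tested genes, and the highest for 5, against 12.6%. AXIN2 was at 1.07, 1.39, 0.715 and 1.40 RPKM in libraries A to D and at 1.28, 0.883, 0.284 and 0.956 RPKM in E to H. The feedback inhibitors of Dishevelled, NKD1 and NKD2, stood at 0.0562 and 0.0205 RPKM in G, where the other libraries held 0.132 to 1.5 RPKM of NKD1 and 1.70 to 7.57 RPKM of NKD2. The 9 tested target genes went both ways in G. CD44 and BMP4 were highest there, at 982 and 7.71 RPKM. SOX9, MYC, MSX2 and JAG1 were lowest there, and CCND1, TCF4 and ID2 were neither. The ligands went both ways in this library. WNT6, WNT10B, WNT5A and the untested WNT9A had their highest values there, at 180.1 RPKM for WNT6 and 3.56 RPKM for WNT5A, while WNT11, WNT7A and WNT10A had their lowest, at 34, 4.67 and 1.08 RPKM. RNF43 and TCF7L2 were also highest there, at 9.28 and 7.4 RPKM. CSH2 and PRP1 were at 0 in G and VIM was at 0.409 RPKM. Beyond the relations of Wnt genes with marker lists, none of which passed after adjustment, the part of such other cells in these values was not tested. These genes were chosen after their values were seen.

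**Figure D4:**
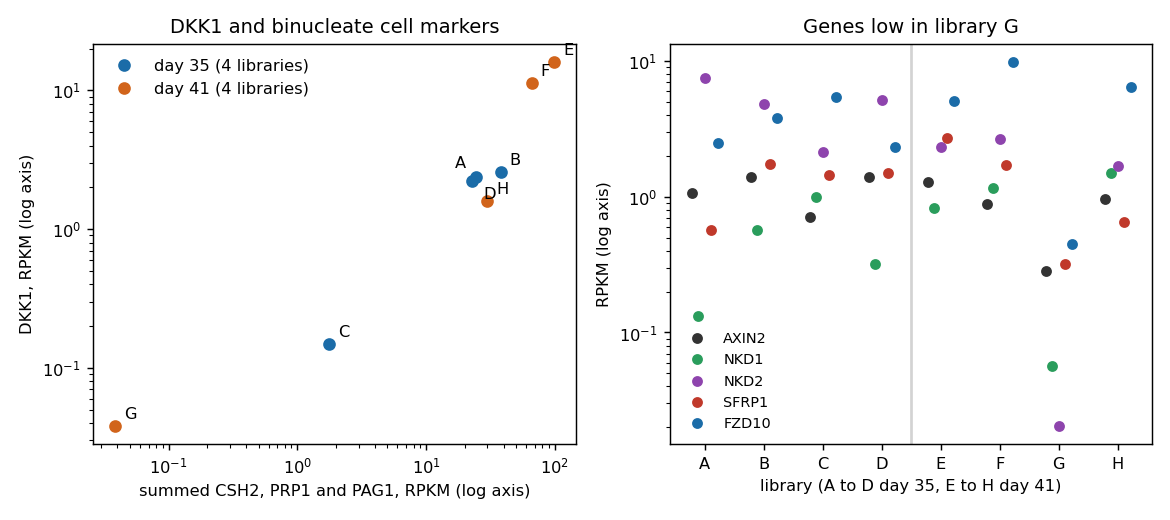
Left, DKK1 against the summed binucleate cell markers CSH2, PRP1 and PAG1, both in RPKM on log axes, 1 lettered point per library. Right, RPKM of AXIN2, NKD1, NKD2, SFRP1 and FZD10 in each library on a log axis, with A to D from day 35 and E to H from day 41. DKK1 and the markers are both lowest in G and C and highest in F and E, and each of the 5 genes on the right is lowest in G.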

How the data were processed

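RNA from 8 outgrowths was compared between 4 collected on day 35 and 4 on day 41. The authors deposited RPKM values per gene with gene coordinates and lengths, and their own day comparison, giving log2 fold changes, a likelihood ratio score, p-values and FDR. Per the submitters' processing notes, FastQC, HISAT2, featureCounts, edgeR and the ARS-UCD1.2 build were used; versions, and whether counting used strand, are not given in the sources used here. RPKM times gene length gave whole reads (within 0.01) in all 8 columns, with library scale factors of 0.897 to 1.04, so 0.5 RPKM in a 1 kb gene stood for 55.4 to 79.3 reads. The main test was limma-trend (limma 3.58.1, R 4.3.3) on log2(RPKM + 1), which understates changes of low genes, over the 12582 genes with at least 0.5 RPKM in at least 4 libraries, without covariates, with Benjamini-Hochberg adjustment over all of them and a threshold of 0.05. Of the 43 Wnt genes 34 passed that filter (79.1%, against 84.0% of 14970 genes). limma-voom on the recovered reads, array and quality weights, other scalings, pseudocounts and filters, and leaving out each library were the alternatives, and the fits were tested on simulated data. The labels describe individual embryo outgrowths, but number 1 occurs on both days and they do not say whether it is the same embryo; p-values measure the spread between these outgrowths. All tested Wnt genes are named with their day means; values in each library are given for the 4 highest of each role, for those with an unadjusted p or a deposited FDR under 0.05, and for those whose highest library is over 4 times their median. Of the other pathway genes, 3 higher and 3 lower ones, taken by smallest p, and a few core genes are named; the members, gene lists and marker lists were chosen with earlier results of these data known. Genes without a symbol (2035) could not be matched. Limits for a count of 0 cover counting error only.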

Additional observations from a re-analysis of the deposited data

Results flagged for a closer look

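In 73 groups of 4 libraries, 1 library lay apart from the other 3 in 6 cases, where the gap to its neighbour passed Dixon's critical share of the group's range; chance gives about 1 in 20. On day 35 these were TCF7L1 at 25.8 RPKM and FZD5 at 1.65 RPKM, both low in library A, FZD2 at 1.32 RPKM, high in library B, and DKK1 at 0.148 RPKM, low in library C. On day 41 they were WNT5A at 3.56 RPKM, high in library G, and LRP6 at 2.61 RPKM, low in library G.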

How the results depend on the processing

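By limma-trend 4 of all tested genes were higher and 2 lower on day 41. Array weights gave 592 and 452, limma-voom with quality weights 372 and 280, and limma-voom without weights 2 and 0. A pseudocount of 0.1 and no filter each left 0 lower. Leaving out 1 library gave 0 to 25 higher and 0 to 18 lower, with 25 and 18 without library A and 0 in both directions without B, C, D, E or F. For the Wnt genes, 2 were called higher (FZD6 and WNT10B) with array weights and 2 with quality weights, and 0 when single libraries were left out by limma-trend, with log2 differences of 0.42 to 0.63 for FZD6 and 0.71 to 0.99 for WNT10B. For the other pathway genes array weights called 2 higher (PTK7 and CD44) and 1 lower (SOX9), quality weights 1 lower (SOX9), and leaving out single libraries 0 in both directions. The cause of these differences was not tested. The 6 Wnt genes and 6 other pathway genes whose log2 differences were followed through the 18 alternatives kept their sign in each that could be fitted, where TCF7 and DKK3 fell below a filter of 1 RPKM. Over all 34 Wnt genes, up to 5 took the other sign, with 5 under array weights and 5 without library G, and 4 under quality weights and 4 without library A. The Pearson correlation of DKK1 with the binucleate markers was 0.856 to 0.920 when single libraries were left out, in an alternative chosen after seeing the data. No paired analysis was possible because the sample numbers in the labels share only number 1 between the days and the columns carry none. Depth limits the genes with few reads, such as RSPO1, RSPO3, DKK4 and WNT3.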

Other observations

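WNT6 and WNT10A lie next to each other on chromosome 2 (ARS-UCD1.2, 106822087 to 106835094 and 106842324 to 106855593, both on the plus strand), with 7229 bases between them. Their levels were 157 ± 29.2 and 2.13 ± 0.721 RPKM (SD over 8 libraries), so the neighbours differed in level in each library.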
